A study of Mus musculus with 15 samples.

Results

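The proteasome genes outside the immunoproteasome were followed in bone marrow-derived macrophages (BMDMs) under RANKL or LPS. They were taken by name from a table of 20089 mouse genes, as every gene called *Psma*, *Psmb*, *Psmc*, *Psmd*, *Psme*, *Psmf* or *Psmg* with a number, leaving out the inducible catalytic subunits *Psmb8*, *Psmb9* and *Psmb10*, and with a mean of at least 0.1 FPKM (fragments mapped to a gene, scaled to transcript length and to library size) over the 15 samples. Of 45 genes with such a name, 44 were members. *Psma8*, a testis form of an alpha subunit, entered with a mean of 0.657 FPKM, and *Psmb11*, the form of thymic epithelium, was listed at 0 in every sample and did not enter.

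RNA was sequenced from BMDMs of wild-type C57BL/6 mice grown with M-CSF, the factor that keeps macrophages and their precursors alive. Every group received M-CSF, which was all the control cells had, while the others also had RANKL, the cytokine that turns these precursors into bone-resorbing osteoclasts, or LPS, a bacterial cell wall component, for 4 h or 3 d. Each of the 5 groups (control, RANKL 4 h, RANKL 3 d, LPS 4 h, LPS 3 d) had 3 replicates, and no label says that they came from separate mice or cultures, so that p-values measure the spread between these samples. There was 1 control group with no time given, so for both 3 d groups the stimulus and the time in culture cannot be told apart, and all comparisons with control share the same 3 samples.

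The proteasome is the chamber in which cells cut up proteins that carry ubiquitin. Its core particle, the 20S, stacks rings of alpha and beta subunits, with the cutting sites on the beta subunits encoded by *Psmb5* (chymotrypsin-like), *Psmb6* (caspase-like) and *Psmb7* (trypsin-like), which the interferon-inducible *Psmb8*, *Psmb9* and *Psmb10* can replace to form the immunoproteasome. The 19S cap of ATPases, ubiquitin receptors and a lid unfolds and feeds the substrate, dedicated chaperones put both together, and caps of other kinds, such as the *Psme1* and *Psme2* ring (PA28), open the core without ubiquitin. In osteoclasts and in macrophages given LPS, proteasomes degrade inhibitors of NF-kappaB, and their inhibitors are known to slow osteoclast formation.

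Recovered sequencing depth was even, with 18306184 to 20330207 fragments per sample on the listed genes. The 43 members other than *Psma8* had 141 to 9463 fragments in each sample. Of 8 osteoclast markers, 8 were above control in RANKL 3 d, and of 8 cytokine and other genes that LPS induces, 8 were above it in LPS 4 h. The 8 macrophage markers were detected. Of these, 1 was higher and 1 lower than control in RANKL 3 d, 1 higher and 2 lower in LPS 4 h, and 2 higher and 0 lower in LPS 3 d. LPS 3 d replicate 3 stood apart from its group. Between it and replicates 1 and 2 the log2 differences over all tested genes had SDs of 0.76 and 0.68, against 0.39 between those 2 replicates, so comparisons with LPS 3 d are also given without it. Marker sets of other cells also moved. Summed neutrophil precursor markers were at 6645 to 19562 FPKM in control, 1524 to 5856 in RANKL 3 d and 147 to 1675 in LPS 3 d. Of these 7 markers, 5 fell in RANKL 3 d and 7 in LPS 3 d. Of 5 B cell markers, which summed to 16.2 to 20.9 FPKM in control, 4 fell in RANKL 3 d and 5 in LPS 3 d. The 1 erythroid marker tested, *Hba-a1*, fell in both, and 0 of 4 T cell markers passed in either. Stromal markers summed to 139 to 307 FPKM in control and 388 to 1818 in RANKL 3 d, where 6 of 8 rose, and markers of dividing cells summed to 363 to 563 FPKM in control and 142 to 162 in LPS 3 d, where 8 of 8 fell. Their part in the results below was not tested.

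In unstimulated cells the members took 0.904% ± 0.0333 (SD, n = 3) of all summed FPKM. Their median levels differed between the parts of the particle, while the ranges of several parts overlapped. FPKM is scaled to transcript length, so levels can be set beside each other. The beta ring had the highest median among the roles at 153 FPKM, from *Psmb7* at 128 ± 8.67 to *Psmb6* at 263 ± 14.6 FPKM. The alpha ring had a median of 111 FPKM, from *Psma3* at 40.5 ± 1.30 to *Psma2* at 170 ± 10.6 FPKM. The 19S ATPases lay within a narrow range, from *Psmc6* at 68.2 ± 2.78 to *Psmc1* at 122.6 ± 3.59 FPKM, and the other base subunits from *Psmd1* at 60.5 ± 7.05 to *Psmd2* at 110 ± 8.49 FPKM. The lid spanned the widest range in the cap, from *Psmd11* at 34.1 ± 1.02 to *Psmd8* at 197 ± 15.4 FPKM.

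Most genes whose products act on the particle without staying in it were lower. The 7 assembly chaperones had a median of 16.0 FPKM, from *Psmd9* at 10.8 ± 0.694 to *Psmg4* at 27.3 ± 4.82 FPKM, and *Psmf1*, which encodes the inhibitor PI31, stood at 8.60 ± 0.583 FPKM. The activators ranged widely, from *Psme4*, which encodes PA200, at 23.3 ± 1.80 FPKM to *Psme1* at 281 ± 86.3 FPKM, a mean above that of every other member. *Psma8* was at 0.664 ± 0.246 FPKM.

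Spread between replicates differed by gene and group. In control the scarce *Psma8* had the widest, its highest sample at 2.17 times the lowest, and the interferon-linked genes came next. Among control samples *Psme1* was at 373, 265 and 203 FPKM and *Psme2* at 236, 161 and 129 FPKM, which is 1.84 and 1.83 times from lowest to highest. The inducible subunits varied alike, with 1.98 times for *Psmb10*, 1.95 for *Psmb9* and 1.94 for *Psmb8*. In RANKL 4 h the same 5 genes had the widest spread of the family, from 2.05 times for *Psme1* to 2.32 for *Psmb10*. In RANKL 3 d *Psmb10* (1.69) and *Psme2* (1.53) were again the widest, ahead of *Psmg4* (1.46). In the LPS groups other members led. *Psmg4* was the widest in LPS 4 h at 1.73 times, ahead of *Psme1* (1.52) and *Psmb9* (1.49). In LPS 3 d *Psma8* (2.06), *Psmg3* (1.97), *Psmf1* (1.93), *Psmg2* (1.85), *Psmd8* (1.64) and *Psmd10* (1.60) were the widest. For all of these but *Psma8* the lowest sample was replicate 3, which stood apart from its group, so these spreads rest on that sample.

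**Figure D1:**
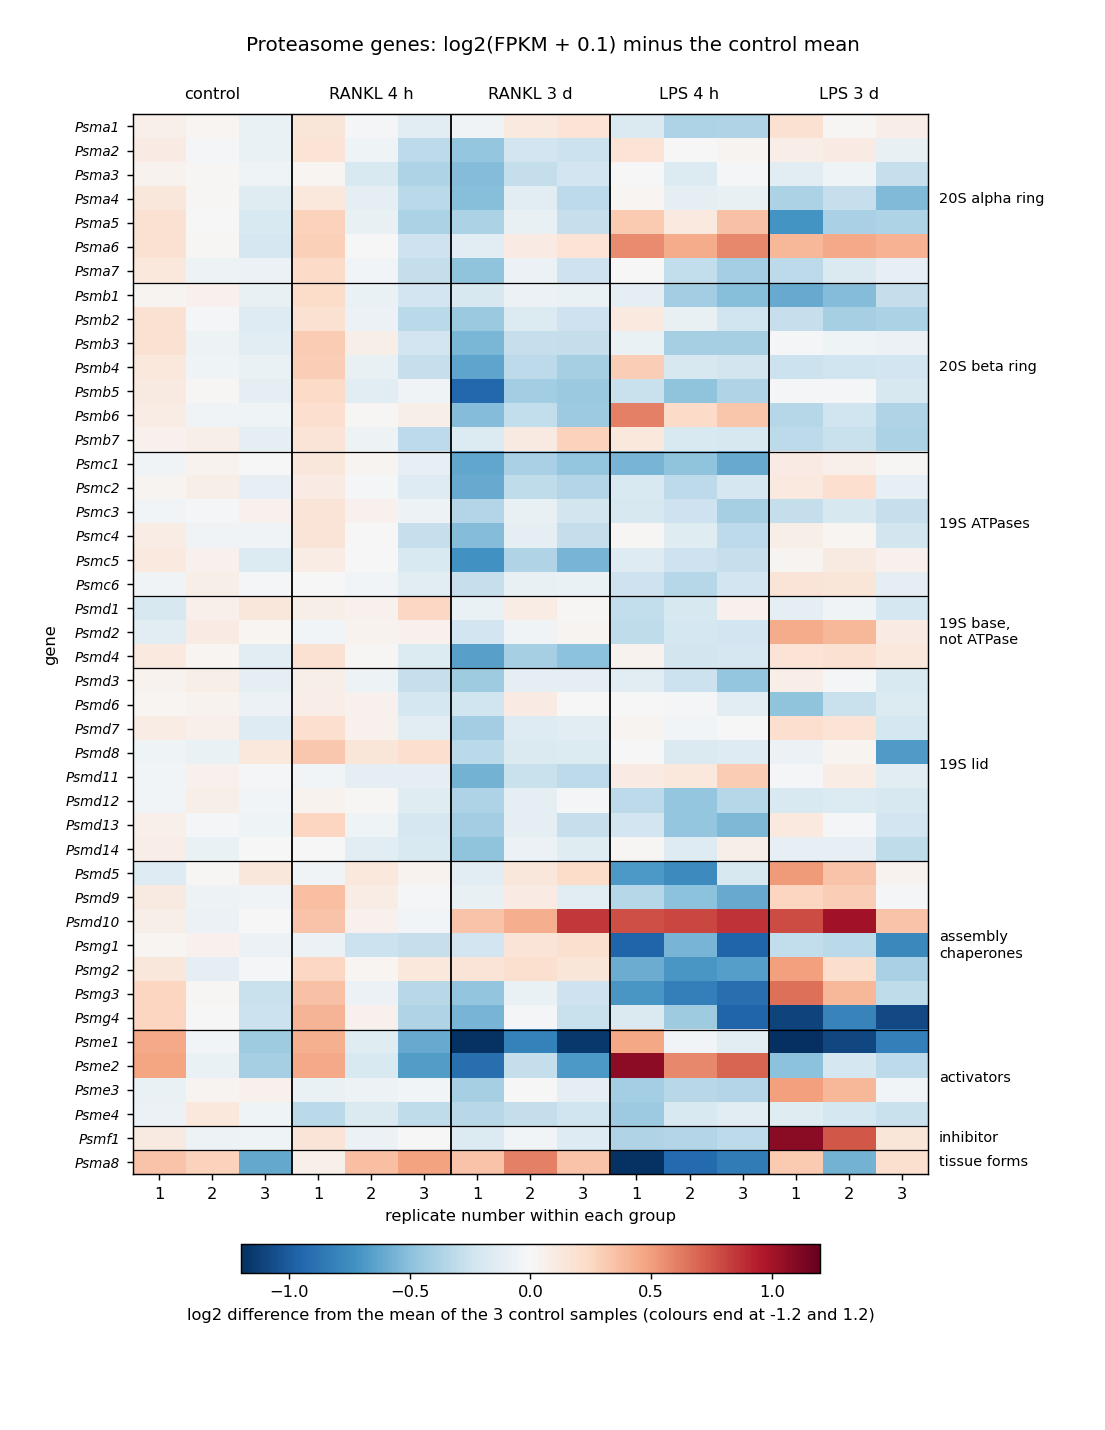
Each row is 1 of the 44 members, grouped by role, and each column 1 of the 15 samples, coloured by log2(FPKM + 0.1) minus the mean of the 3 control samples. RANKL 3 d columns are mostly blue over the 20S and 19S rows, the LPS 4 h columns are dark blue over most assembly chaperones, and *Psmd10* is red in RANKL 3 d and both LPS groups.

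The starts of 4 members that the results turn on are shown because motifs of known proteasome and interferon control can be looked for there. RefSeq windows on GRCm38.p6, 250 bases before to 50 after a gene's start, were found for 36 of the 44 members, in 39 windows. Searched on both strands were TGACNNNGC, the core of the antioxidant response element that *Nfe2l1* and *Nfe2l2* bind, and the core of the interferon-stimulated response element, a pair of GAAA runs with any 2 bases between them. Capitals mark a match.
Psme1, chr14:55578244-55578543, plus strand: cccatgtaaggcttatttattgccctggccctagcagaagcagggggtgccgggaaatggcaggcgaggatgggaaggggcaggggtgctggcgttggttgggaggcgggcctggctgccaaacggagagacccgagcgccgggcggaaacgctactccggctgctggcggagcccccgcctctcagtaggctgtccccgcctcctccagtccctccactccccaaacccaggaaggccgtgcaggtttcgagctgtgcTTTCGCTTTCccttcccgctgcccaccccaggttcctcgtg
Psme2, chr14:55591052-55591351, minus strand: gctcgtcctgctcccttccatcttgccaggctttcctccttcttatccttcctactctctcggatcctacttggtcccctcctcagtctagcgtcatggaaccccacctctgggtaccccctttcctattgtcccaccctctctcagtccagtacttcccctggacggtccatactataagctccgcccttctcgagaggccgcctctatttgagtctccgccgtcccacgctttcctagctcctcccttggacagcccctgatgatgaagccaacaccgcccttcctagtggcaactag
Psmb5, chr14:54617946-54618245, minus strand: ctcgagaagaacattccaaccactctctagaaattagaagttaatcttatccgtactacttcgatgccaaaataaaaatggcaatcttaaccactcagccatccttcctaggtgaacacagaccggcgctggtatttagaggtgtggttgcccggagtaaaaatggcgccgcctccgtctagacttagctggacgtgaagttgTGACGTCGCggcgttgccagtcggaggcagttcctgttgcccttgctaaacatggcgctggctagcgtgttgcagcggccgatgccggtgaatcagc
Psmd10, chrX:140956662-140956961, minus strand: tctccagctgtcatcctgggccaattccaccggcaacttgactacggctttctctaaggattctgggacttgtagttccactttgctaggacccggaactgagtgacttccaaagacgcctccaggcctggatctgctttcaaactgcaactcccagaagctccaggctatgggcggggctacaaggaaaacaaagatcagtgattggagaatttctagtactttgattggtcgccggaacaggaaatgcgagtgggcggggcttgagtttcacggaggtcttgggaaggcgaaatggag

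*Psme1* had 1 match to the interferon-stimulated response element core, read on the opposite strand and 10 bases after the start. *Psmb5* had 1 TGACNNNGC match, 47 bases before the start. The *Psme2* and *Psmd10* windows held neither motif. TGACNNNGC was in windows of 6 members (*Psmb5*, *Psmb6*, *Psmc6*, *Psmd12*, *Psmd9* and *Psme4*) and in 12.4% of all 32851 windows. The interferon-stimulated response element core was in windows of 5 members (*Psmb3*, *Psmd4*, *Psmd9*, *Psme1* and *Psmg4*) and in 3.44% of all windows. No match was in the windows of *Psmb8*, *Psmb9* and *Psmb10*. A match in these letters is a description of the sequence and not a binding site.

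RANKL for 4 h left the family near its control level. No member passed an adjusted p of 0.05 in limma, where 0.119% of all 11743 tested genes did, 0.111% higher and 0.00852% lower. By the fold limits of the study's methods, above 1.5 or below 0.66 with an unadjusted p under 0.05, it was also 0 members, against 2.56% of all genes. At an unadjusted p under 0.05 there was 1 member, *Psme4*, at a log2 difference of -0.27 (SE 0.11, limma adjusted p = 0.789). Counting recovered fragments in place of FPKM (limma voom) also called 0 members. Same-numbered samples of these 2 groups deviated together (correlation 0.71 to 0.84), which the main fit does not use. With the replicate number as a block over all 5 groups, 0 members and 25 of all tested genes passed. A fit paired by number on these 2 groups alone was not run. Log2 differences ran from -0.27 for *Psme4* to 0.30 for *Psma8*, with a median of -0.02. The catalytic subunits stood at 178 ± 24.1 FPKM (*Psmb5*), 281 ± 19.3 FPKM (*Psmb6*) and 122 ± 19.8 FPKM (*Psmb7*), and the PA28 genes at 263 ± 94.5 FPKM (*Psme1*) and 163 ± 63.8 FPKM (*Psme2*).

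After RANKL for 3 d, subunits of the core and of the cap were lower. Of the 44 members, 10 were lower than in control and 1 was higher, where 9.85% of all tested genes were lower, 20.8% higher and 30.6% either. Past the fold limits were 3 members, all lower, against 29.2% of all genes. The members' median log2 difference was -0.24 against 0.16 over all tested genes, and 41 of 44 lay below the latter. Members took 0.790% ± 0.0660 of summed FPKM in these samples. In a bulk sample, fewer cells of a type and less RNA per cell cannot be told apart. Scaling set the count but kept the direction. Centred on each sample's median gene, 26 members were lower and 0 higher, against 2143 and 1396 of all 11743 tested genes. limma voom with TMM factors gave 21 lower and 0 higher, against 1709 and 1791 of all. FPKM rescaled to equal sums gave 6 lower and 1 higher, against 890 and 3002 of all.

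Among the catalytic subunits, 2 of 3 fell. *Psmb5* was at 189, 176 and 161 FPKM in control and at 90.7, 131 and 129 FPKM in RANKL 3 d. All 3 RANKL 3 d samples were below every control sample. The log2 difference was -0.60 (SE 0.15, limma adjusted p = 0.00737), the largest fall in the core. *Psmb6* went from 280, 256 and 253 FPKM to 183, 214 and 194 FPKM, also without overlap, with a log2 difference of -0.42 (SE 0.12, limma adjusted p = 0.0152). *Psmb7* was at 132, 134 and 118 FPKM in control and 114, 137 and 154 FPKM in RANKL 3 d, so the groups overlapped (log2 difference 0.07, not past the test). Elsewhere in the core, *Psmb4* and *Psma3* fell, by 0.45 (limma adjusted p = 0.0497) and 0.35 (adjusted p = 0.0380) on the log2 scale, and the remaining alpha and beta subunits had differences from -0.37 (*Psmb3*) to 0.08 (*Psma1*). Leaving out control replicate 1 or RANKL 3 d replicate 1 ended the call for *Psmb6*, at -0.37 in both cases.

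In the 19S cap, 5 of 17 subunits fell, none rose, and 3 of the 5 were ATPases. *Psmc5* fell from 109, 104 and 89.0 FPKM to 60.3, 77.7 and 68.0 FPKM, a log2 difference of -0.55 (SE 0.11, limma adjusted p = 0.00311). *Psmc1* was at 119, 126 and 122 FPKM in control and 79.3, 93.4 and 88.7 FPKM in RANKL 3 d, with a log2 difference of -0.49 (SE 0.094, limma adjusted p = 0.00179). Neither pair of groups overlapped. *Psmc2* fell by 0.42 on the log2 scale. *Psmd4*, a ubiquitin receptor of the base, fell by 0.51 (limma adjusted p = 0.00509) and the lid subunit *Psmd11* by 0.38 (limma adjusted p = 0.0130). The 12 others ranged from -0.31 (*Psmc4*) to 0.01 (*Psmd1*) and did not pass.

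The accessory members split. *Psme1* was at 373, 265 and 203 FPKM in control and 119, 155 and 121 FPKM in RANKL 3 d, so the highest treated sample was below the lowest control. Its log2 difference of -1.05 (SE 0.26, limma adjusted p = 0.00887), a fold of 0.482, was the largest fall in the family. Its partner *Psme2*, with 236, 161 and 129 FPKM against 90.8, 139 and 105 FPKM, overlapped and had -0.63 (SE 0.27, limma adjusted p = 0.0935), which without control replicate 3 became -0.83 and passed. *Psme4* was at -0.29 (limma adjusted p = 0.0524, or 0.0433 with the replicate number as a block), and *Psme3*, the nuclear PA28 form, at -0.17. The 1 rise was *Psmd10*, which encodes gankyrin, a chaperone of the ATPase ring, from 20.9, 18.9 and 19.8 FPKM to 25.3, 27.0 and 35.8 FPKM. Every RANKL 3 d sample was above every control sample, with a log2 difference of 0.54 (SE 0.17, limma adjusted p = 0.0257). That call was lost when any of the 3 control samples was left out (0.51 to 0.58), when RANKL 3 d replicate 3 was left out (0.39), and with samples centred on their median gene (0.32, adjusted p = 0.161). The other 6 chaperones (-0.28 to 0.16), *Psmf1* (-0.12) and *Psma8* (0.43) did not pass. The count of 11 changed members became 7 without control replicate 1, 7 without control replicate 2 and 6 without RANKL 3 d replicate 1.

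**Figure D2:**
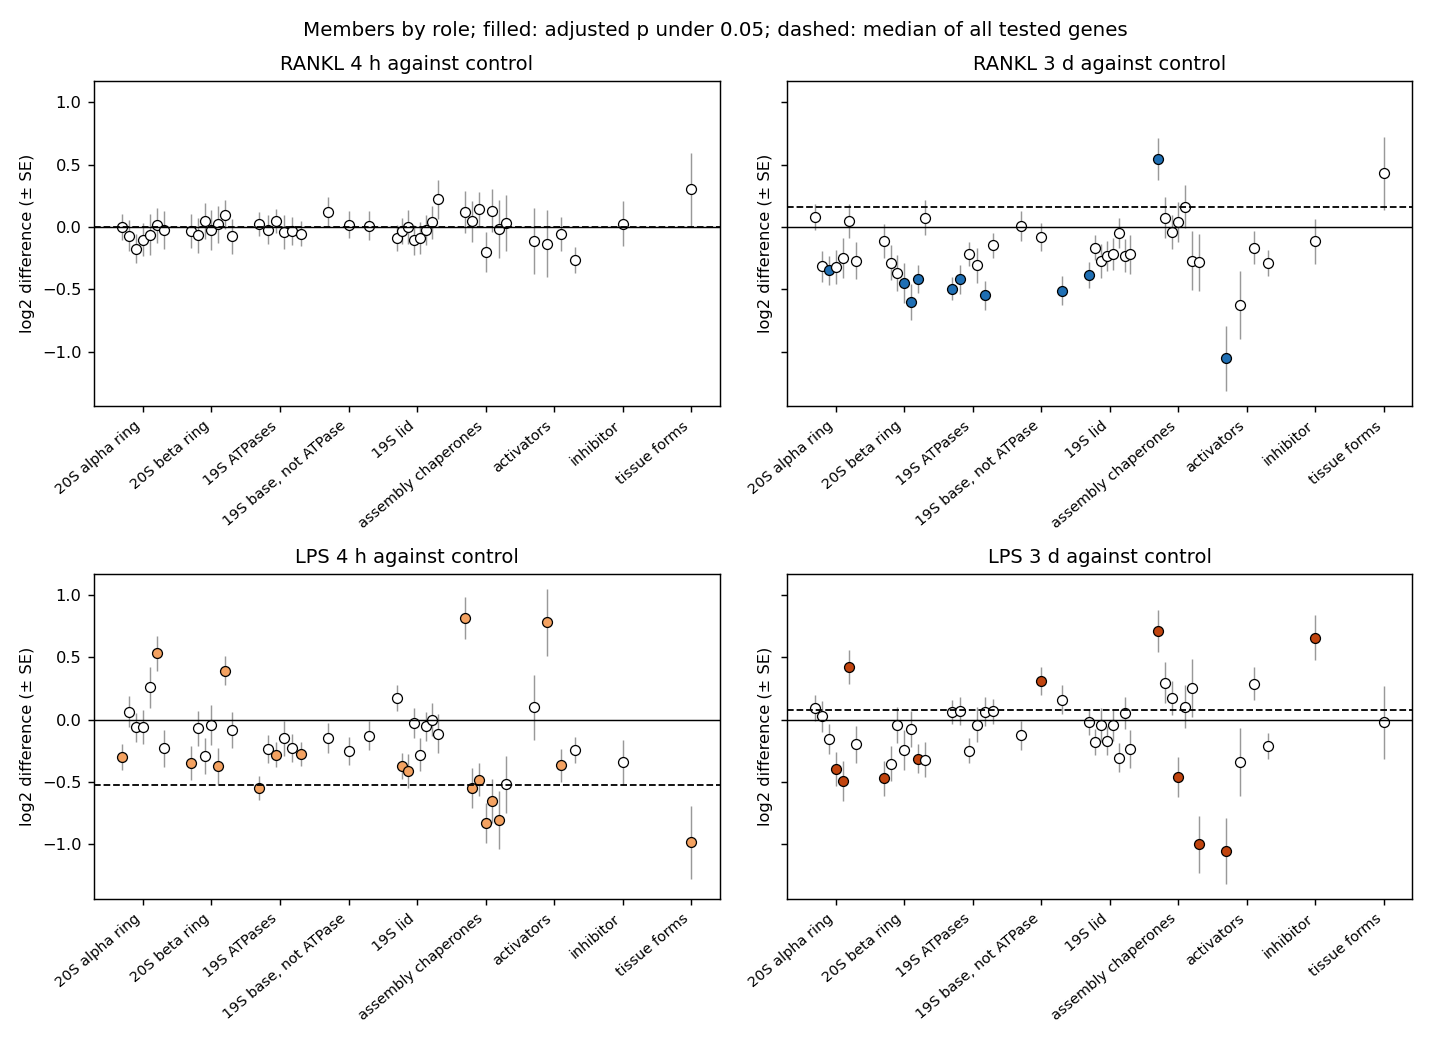
Log2 differences from control for the 44 members by role, 1 point a gene with its SE, filled where the limma adjusted p is under 0.05, and a dashed line at the median of all tested genes. In RANKL 3 d 41 of 44 points lie under the dashed line at 0.16, and in LPS 4 h 38 lie above the dashed line at -0.52.

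In LPS for 4 h against control, the scaling decides the sign. Of the 44 members, 4 were higher and 15 lower than in control on FPKM as deposited, where 9.72% of all tested genes were higher, 50.1% lower and 59.8% either. Past the fold limits were 6 members (2 higher, 4 lower), against 49.8% of all genes. The median member was at -0.23 and the median of all tested genes at -0.52, and 6 of 44 members lay below the latter. FPKM at equal sums gave 4 higher and 17 lower, against 1075 and 5778 of all 11743 tested genes. With samples centred on their median gene 22 members were higher and 0 lower, against 2382 and 2021 of all. limma voom with TMM factors gave 15 higher and 0 lower, against 2063 and 2273 of all. Directions in the next paragraphs are those of FPKM as deposited. None of the 15 falls passed as a fall on the centred scale, where *Psmc6* passed as higher (0.29). *Psma8* (-0.42), *Psmg1* (-0.26), *Psmg3* (-0.24) and *Psmg2* (-0.09) stayed below 0 there without passing, and the other 11 turned above 0.

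In the core, *Psma6* and *Psmb6* rose under LPS for 4 h, and they rose on the centred scale too. *Psma6* was at 148, 132 and 114 FPKM in control and 194, 178 and 195 FPKM in LPS 4 h, with no overlap and a log2 difference of 0.53 (SE 0.14, limma adjusted p = 0.00478). *Psmb6* was at 280, 256 and 253 FPKM against 400, 308 and 331 FPKM, also without overlap (log2 difference 0.39, SE 0.12, limma adjusted p = 0.0102), and without LPS 4 h replicate 1 it was at 0.28 and did not pass. *Psmb5*, from 189, 176 and 161 FPKM to 145, 126 and 137 FPKM, fell by 0.37 (limma adjusted p = 0.0416, or 0.0503 with the replicate number as a block), a call lost when control replicate 1 or 2 or LPS 4 h replicate 2 or 3 was left out (-0.38 to -0.31), and it was at 0.20 on the centred scale. *Psma1* (-0.30) and *Psmb1* (-0.35) were lower as deposited and above 0 when centred (0.26 and 0.22, neither past the test). *Psmb7* was at -0.08.

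In the 19S cap, *Psmc1*, *Psmc3*, *Psmc6*, *Psmd12* and *Psmd13* were lower as deposited, from -0.27 for *Psmc6* to -0.55 for *Psmc1*. *Psmc1* went from 119, 126 and 122 FPKM to 83.1, 87.8 and 80.7 FPKM, the clearest separation in the cap (SE 0.094, limma adjusted p = 0.000241), and stood at 0.02 on the centred scale. On that scale 10 of the 17 cap subunits passed as higher and 0 as lower, against 2382 and 2021 of all 11743 tested genes. The 12 that did not pass as deposited ran from -0.28 (*Psmd3*) to 0.18 (*Psmd11*).

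Of the 7 assembly chaperones, 1 was higher and 5 lower as deposited. Their median of -0.55 lay close to the all-gene median of -0.52, and on the centred scale 1 of 7 passed, with a median of 0.019. *Psmg1*, which pairs with *Psmg2* to start the alpha ring, was at 16.2, 16.6 and 15.2 FPKM in control and 8.17, 10.8 and 8.18 FPKM in LPS 4 h. All 3 LPS 4 h samples were below every control sample (log2 difference -0.83, SE 0.16, limma adjusted p = 0.000632). *Psmg2* went from 13.6, 11.4 and 12.2 FPKM to 8.15, 7.57 and 7.79 FPKM (-0.65, adjusted p = 0.00520), and *Psmg3* from 17.4, 14.7 and 12.1 FPKM to 8.94, 8.21 and 7.74 FPKM (-0.81, adjusted p = 0.00873). *Psmd5* and *Psmd9*, chaperones of the base, were lower by 0.55 and 0.48 on the log2 scale, and *Psmd5* lost its call without LPS 4 h replicate 2 (-0.44). *Psmg4* was at -0.52 (limma adjusted p = 0.0629, or 0.0318 with the block). On the centred scale none of these falls passed, with values from -0.26 for *Psmg1* to 0.09 for *Psmd9*. *Psmd10* was the exception on either scale. It rose from 20.9, 18.9 and 19.8 FPKM to 34.1, 34.7 and 36.3 FPKM, a log2 difference of 0.81 (SE 0.17, limma adjusted p = 0.000958) as deposited and 1.38 (adjusted p = 2.23e-05) when centred.

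The 2 genes of the interferon-inducible PA28 ring parted under LPS for 4 h. *Psme2* was at 357, 252 and 275 FPKM, every value above the 236, 161 and 129 FPKM of control, with a log2 difference of 0.78 (SE 0.27, limma adjusted p = 0.0232). Leaving out control replicate 2 (0.74), control replicate 3 (0.58) or LPS 4 h replicate 1 (0.63) ended that call. *Psme1* was at 375, 265 and 247 FPKM and overlapped control (0.10, adjusted p = 0.769). Whether the 2 genes differ in response was not tested. A copy of *Psme2*, *Psme2b*, is listed as a gene of its own at 56.5 ± 16.1 FPKM in control and 88.6 ± 12.5 FPKM in LPS 4 h, and how fragments were split between them is not stated, so the *Psme2* values are uncertain to that extent. *Psme3* was lower by 0.37 as deposited (limma adjusted p = 0.0286), a call lost when control replicate 2 or 3 or any LPS 4 h sample was left out (-0.38 to -0.34), and at 0.20 when centred. *Psme4* was at -0.25 (adjusted p = 0.0566, or 0.0493 with the block). *Psmf1* was at -0.34 and did not pass, and the scarce *Psma8* fell from 0.826, 0.785 and 0.380 FPKM to 0.223, 0.284 and 0.311 FPKM (-0.98, limma adjusted p = 0.00996), a call lost when centred (-0.42). The 19 changed members became 12 without control replicate 2 and 12 without LPS 4 h replicate 2.

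**Figure D3:**
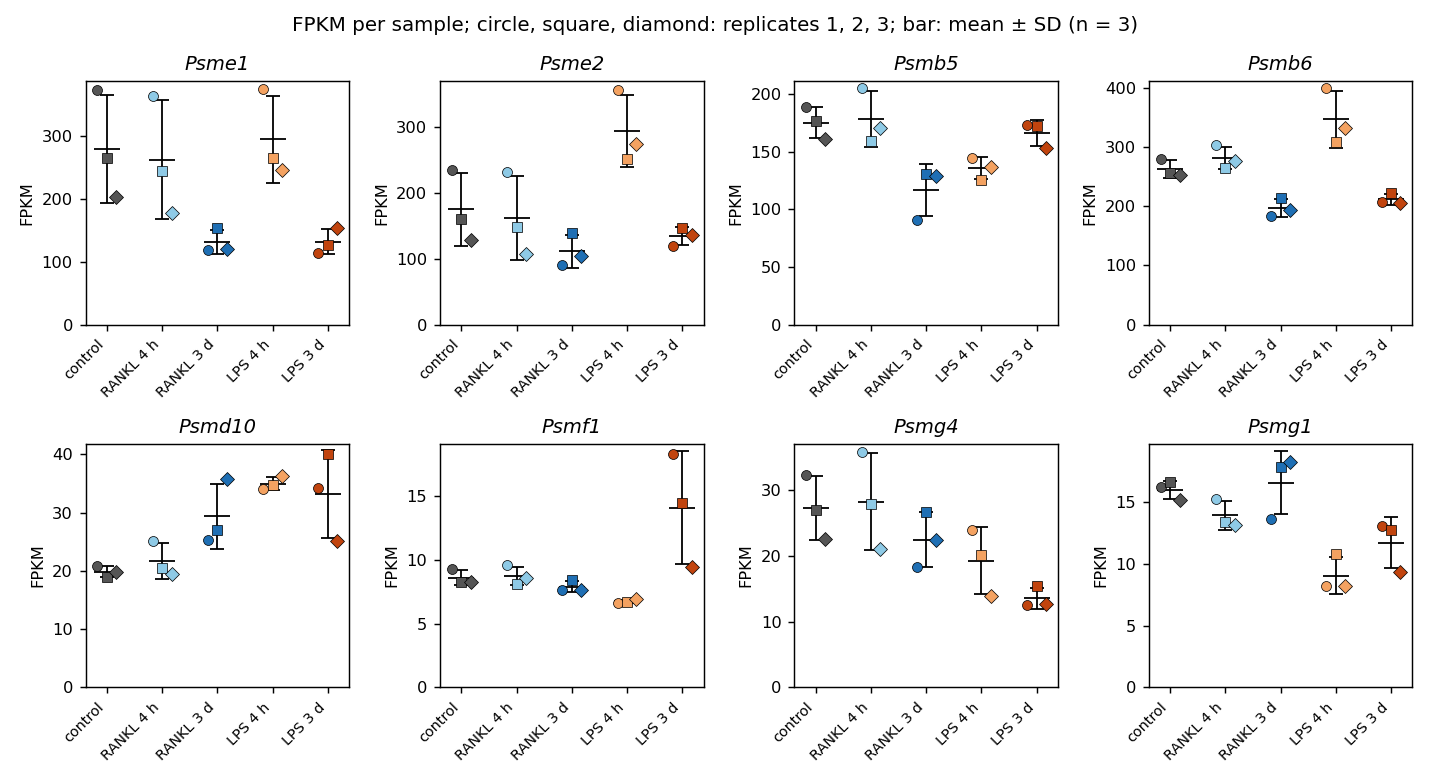
FPKM in each of the 15 samples for 8 members, with circle, square and diamond for replicates 1, 2 and 3 and a bar at the mean ± SD of each group (n = 3). *Psmd10* sits between 34.1 and 36.3 FPKM in LPS 4 h against 18.9 to 20.9 in control, and *Psme1* sits between 115 and 155 FPKM in both 3 d groups against 203 to 373 in control.

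After LPS for 3 d, single members differed from control in both directions. Of the 44, 4 were higher and 7 lower than in control, where 18.2% of all tested genes were higher, 17.6% lower and 35.8% either. Past the fold limits were 4 members (2 higher, 2 lower), against 31% of all genes. The median member was at -0.04 and the median of all tested genes at 0.08, with 33 of 44 members below the latter. Centred on the median gene, 2 were higher and 9 lower, against 1800 and 2324 of all 11743 tested genes. At equal sums 3 were higher and 6 lower, against 1912 and 1868 of all. Without LPS 3 d replicate 3 the balance turned, with 7 higher and 5 lower, and 8 of the 11 calls were kept. The 11 became 6, 4 and 7 without control replicates 1, 2 and 3, and 4 and 7 without LPS 3 d replicates 1 and 2, so single calls in this comparison rest on few samples.

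*Psmd10* and *Psmf1* rose most. *Psmd10* was at 34.3, 40.1 and 25.1 FPKM, all above control, with a log2 difference of 0.71 (SE 0.17, limma adjusted p = 0.00519) that kept its call when each sample was left out in turn (0.56 to 0.90) and when centred (0.63), and stood at 0.90 without LPS 3 d replicate 3. *Psmf1* was at 18.3, 14.5 and 9.48 FPKM against 9.27, 8.24 and 8.29 FPKM in control, without overlap though replicate 3 lay just above it. Its log2 difference was 0.66 (SE 0.18, limma adjusted p = 0.0127), or 0.92 without LPS 3 d replicate 3, and 0.44 and not past the test without replicate 1. *Psma6* (171, 178 and 175 FPKM against 148, 132 and 114, log2 difference 0.42, adjusted p = 0.0299) and *Psmd2* (0.31, adjusted p = 0.0422), a scaffold of the base, rose as deposited, and both lost the call when centred. Without LPS 3 d replicate 3 both kept it, at 0.42 and 0.42. *Psma6* also lost it without control replicate 2 (0.43) or 3 (0.32) or LPS 3 d replicate 1 (0.44) or 2 (0.41).

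*Psme1* and *Psmg4* fell most. *Psme1* was at 115, 127 and 154 FPKM, again below every control sample, with a log2 difference of -1.05 (SE 0.26, limma adjusted p = 0.00740), and at -1.17 without LPS 3 d replicate 3. *Psmg4*, which with *Psmg3* helps place the early alpha subunits, went from 32.3, 27.0 and 22.6 FPKM to 12.5, 15.4 and 12.7 FPKM (-0.998, SE 0.23, limma adjusted p = 0.00420), and its call held when each sample was left out in turn and when centred (-1.08), with -0.96 without LPS 3 d replicate 3. *Psma5* (42.1, 53.0 and 53.5 FPKM against 78.4, 69.6 and 60.9), *Psma4*, *Psmb1*, *Psmb6* and *Psmg1* fell by 0.31 to 0.49 on the log2 scale. Of these, *Psmb6* (207, 222 and 205 FPKM, adjusted p = 0.0492) lost its call when any of the 6 samples was left out (-0.35 to -0.27). *Psma5* (adjusted p = 0.0303) lost it without control replicate 1 (-0.40) or 2 (-0.49) or LPS 3 d replicate 1 (-0.38), and *Psmg1* without any of the control samples (-0.50 to -0.44) or LPS 3 d replicate 3 (-0.31). *Psma4* also lost its call without that replicate (-0.32), while *Psma5* (-0.55) and *Psmb1* (-0.56) kept theirs. *Psmg2*, *Psmg3* and *Psme3* were at 0.10, 0.25 and 0.29 with all samples and at 0.35, 0.53 and 0.45, past the test, without that replicate, and the lid subunit *Psmd6* went from -0.30 to -0.37 and passed. With all samples none of the 6 ATPases (-0.25 to 0.07) or 8 lid subunits (-0.30 to 0.05) passed, nor did *Psmb5* (-0.08), *Psmb7* (-0.32), *Psme2* (-0.34), *Psme4* (-0.21), *Psmd5* (0.30), *Psmd9* (0.18) or *Psma8* (-0.02). Without replicate 3 these 7 did not pass either, at -0.02, -0.29, -0.35, -0.18, 0.43, 0.28 and -0.13 in the same order.

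Several members passed in more than 1 of these comparisons, which share their controls. As deposited, *Psme1* and *Psmb6* were lower in both 3 d groups (4.01% of all tested genes were), *Psmd10* was higher in both (4.74% of all), and 0 members passed in opposite directions (4.34% of all). *Psmb6* was higher in LPS 4 h and lower in LPS 3 d (0.911% of all). *Psma6* and *Psmd10* were higher in both LPS groups (3.44% of all) and *Psmb1* and *Psmg1* lower in both (9.32% of all). The LPS 3 d calls of *Psmb6* and *Psmg1* were lost without LPS 3 d replicate 3. On the centred scale 5 members (*Psma4*, *Psmb6*, *Psmc3*, *Psme1* and *Psme4*) were lower in both 3 d groups (5.78% of all) and 0 higher in both (2.73% of all). There 4 (*Psma4*, *Psma5*, *Psmb6* and *Psme4*) were higher in LPS 4 h and lower in LPS 3 d (2.57% of all), only *Psmd10* was higher in both LPS groups (5.09% of all), and 0 were lower in both (4.11% of all). Not past the test in any comparison with control were 13 members as deposited, against 19.3% of all tested genes, and 7 when centred, against 31.3%. *Psma7* was the 1 member on both lists.

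Set directly against each other at 3 d, RANKL cells had 11 members lower and 4 higher than LPS cells, where 17.9% of all tested genes were lower, 27.6% higher and 45.5% either. Past the fold limits were 4 members, against 38.9% of all genes. The ATPases *Psmc5* (-0.61, limma adjusted p = 0.000680), *Psmc1* (-0.56, adjusted p = 0.000332) and *Psmc2* (-0.49, adjusted p = 0.00331), the base subunits *Psmd4* (-0.67, adjusted p = 0.000390) and *Psmd2* (-0.39), the lid subunit *Psmd11* (-0.36) and the catalytic *Psmb5* (-0.53, adjusted p = 0.00942) were lower in RANKL 3 d. *Psmf1* was lower too (-0.77, SE 0.18, limma adjusted p = 0.00344), as were *Psme3*, *Psma2* and *Psma6*. *Psmg4* (0.72, adjusted p = 0.0199), *Psmg1* (0.50), *Psmb7* (0.40) and *Psmb1* (0.36) were higher as deposited. On the centred scale 0 members were higher and 16 lower, against 2647 and 2961 of all 11743 tested genes. Without LPS 3 d replicate 3 there were 13 lower and 3 higher, and 12 of the 15 calls were kept. *Psma6* (-0.38), *Psmb7* (0.37) and *Psmg1* (0.35) lost theirs. The others named with values stood at -0.62 (*Psmc5*), -0.58 (*Psmc1*), -0.58 (*Psmc2*), -0.68 (*Psmd4*), -0.50 (*Psmd2*), -0.42 (*Psmd11*), -0.58 (*Psmb5*), -1.03 (*Psmf1*), 0.68 (*Psmg4*) and 0.45 (*Psmb1*), and *Psmc6*, *Psmd7* and *Psmg3* (-0.80) became lower and *Psmd6* higher. The count of 15 became 9 without either of the other LPS 3 d replicates. Marker sets also differed between these groups. Higher in RANKL 3 d were 8 of 8 markers of dividing cells and 8 of 8 osteoclast markers. Of 8 genes that LPS induces, 7 were lower. Of 7 neutrophil precursor markers 4 were higher, and of 5 B cell markers 1. Of 8 stromal markers 4 were higher and 1 lower, and of 8 macrophage markers 1 was higher and 3 lower. The part of these sets in the member differences was not tested.

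At 4 h, RANKL cells had 13 members higher and 5 lower than LPS cells, where 50.8% of all tested genes were higher, 10.5% lower and 61.2% either. Past the fold limits were 8, against 51.8% of all genes. Of the 7 assembly chaperones, 6 were higher in RANKL 4 h and *Psmd10* was lower (-0.69). On the centred scale 0 members were higher and 22 lower, against 2083 and 2431 of all 11743 tested genes. The direction of this comparison thus also depends on the scaling. Between times, RANKL 3 d had 10 members lower and 0 higher than RANKL 4 h, against 9.13% of all tested genes lower, 20.4% higher and 29.5% either. The fold limits left 2, against 28.3% of all genes. The 10 were *Psmb3*, *Psmb5*, *Psmb6*, *Psmc1*, *Psmc2*, *Psmc5*, *Psmd4*, *Psmd8*, *Psmd11* and *Psme1* (-0.94). Their number became 5, 6, 5 and 6 without RANKL 4 h replicates 1 and 2 and RANKL 3 d replicates 1 and 3. LPS 3 d had 15 members higher and 5 lower than LPS 4 h as deposited, against 50.8% and 15.9% of all tested genes and 66.8% either (12 past the fold limits, against 59.3%). When centred 0 were higher and 28 lower, against 2754 and 3841 of all 11743 tested genes. The members lower on both scales included *Psme1* (-1.15), *Psme2* (-1.12), *Psma5* (-0.75) and *Psmb6* (-0.70). Without LPS 3 d replicate 3, 14 were higher and 5 lower as deposited, 17 of the 20 calls were kept, and these 4 stood at -1.26, -1.13, -0.81 and -0.68.

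The inducible subunits were set beside the constitutive ones they can replace. In control cells *Psmb8* stood at 1.57 ± 0.401 times *Psmb5*, *Psmb9* at 0.383 ± 0.113 times *Psmb6* and *Psmb10* at 0.667 ± 0.205 times *Psmb7*. The ratio of *Psmb10* to *Psmb7* was 0.899, 0.593 and 0.509 in control and 0.242, 0.325 and 0.171 in RANKL 3 d, so the groups did not overlap. The mean log2 difference was -1.44 with a two-sided exact permutation p of 0.1, the smallest that 3 against 3 samples allow, and 0.655 after adjustment over the 12 ratios tested. In LPS 4 h the ratio was 0.891 ± 0.0472 (exact permutation p = 0.3). The ratio of *Psmb8* to *Psmb5* went from 2.002, 1.498 and 1.21 in control to 1.57, 1.47 and 1.11 in RANKL 3 d, where both genes were lower, and overlapped (log2 difference -0.17, exact permutation p = 0.5). All 12 tests had p from 0.1 to 0.8, and none could reach 0.05 in this design.

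**Figure D4:**
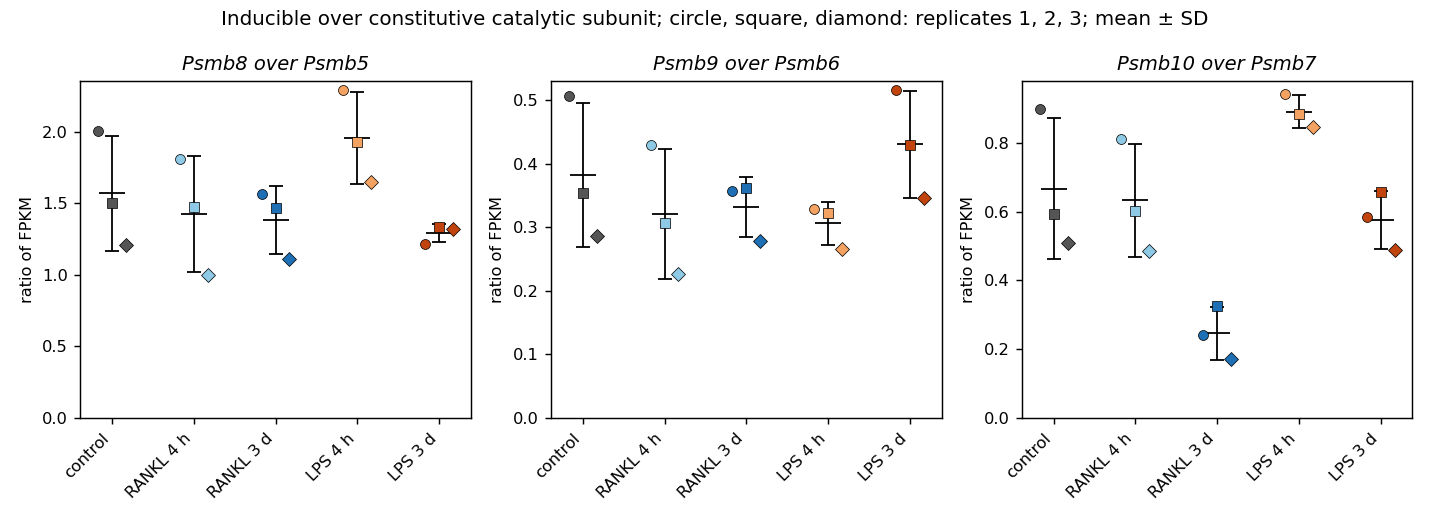
FPKM of each inducible catalytic subunit divided by that of the constitutive subunit it can replace, in each of the 15 samples, with symbols for replicates 1, 2 and 3 and the mean ± SD of each group (n = 3). *Psmb10* over *Psmb7* lies between 0.171 and 0.325 in RANKL 3 d and between 0.509 and 0.899 in control, while the other 2 ratios overlap control in every group.

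The immunoproteasome and its neighbours in antigen processing gave the background to the PA28 genes. In RANKL 3 d 2 of 3 inducible subunits were lower, *Psmb10* at -1.37 (limma adjusted p = 0.00492) and *Psmb8* at -0.77 (adjusted p = 0.0469), and 4 of 8 genes of peptide loading and interferon response were lower: *Nlrc5*, an activator of class I genes, *Tapbp*, *Erap1* and *B2m* (-0.81, adjusted p = 0.0161). Of all tested genes 9.85% were lower in RANKL 3 d. In LPS 4 h 0 of 3 and 3 of 8 passed, all higher, with *Irf1* at 3.00, where 9.72% of all tested genes were higher. In LPS 3 d 0 of 3 and 0 of 8 passed, where 35.8% of all tested genes did, while *Psme1* fell. *Psme1* and *Psme2* lie near each other on chromosome 14, at 55578123 to 55581529 and 55587441 to 55591113 (GRCm38).

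In RANKL 3 d 9.85% of all tested genes were lower and 20.8% higher. Of 14 further proteasome genes that the naming rule does not take, 5 were lower and 2 higher there. The lower ones were *Pomp*, the chaperone of core maturation (-0.57, limma adjusted p = 0.0225), *Shfm1*, the small lid protein (-0.59, adjusted p = 0.00960), *Adrm1*, a ubiquitin receptor (-0.41, adjusted p = 0.0453), and the small Maf genes *Mafg* and *Mafk*. *Ngly1* and *Maff* were higher. In LPS 4 h 4 were higher and 6 lower as deposited, where 9.72% of all tested genes were higher and 50.1% lower. *Nfe2l1*, the transcription factor that restores proteasome genes when the particle is blocked, was at 42.1 ± 5.81 FPKM in control, 55.8 ± 5.20 FPKM in LPS 4 h (0.41, adjusted p = 0.0109) and 63.7 ± 5.39 FPKM in LPS 3 d (0.60, adjusted p = 0.00209, and 0.56 without LPS 3 d replicate 3). *Ddi2*, the protease that activates it, was at 7.22 ± 2.28 FPKM in control and 2.62 ± 0.738 FPKM in LPS 4 h (-1.42, adjusted p = 0.00148). The all-gene median in that comparison was -0.52. In LPS 3 d 2 were higher and 2 lower, against 18.2% and 17.6% of all tested genes. Without LPS 3 d replicate 3 *Akirin2* was among those higher (0.33). In RANKL 4 h 0 passed.

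**Figure D5:**
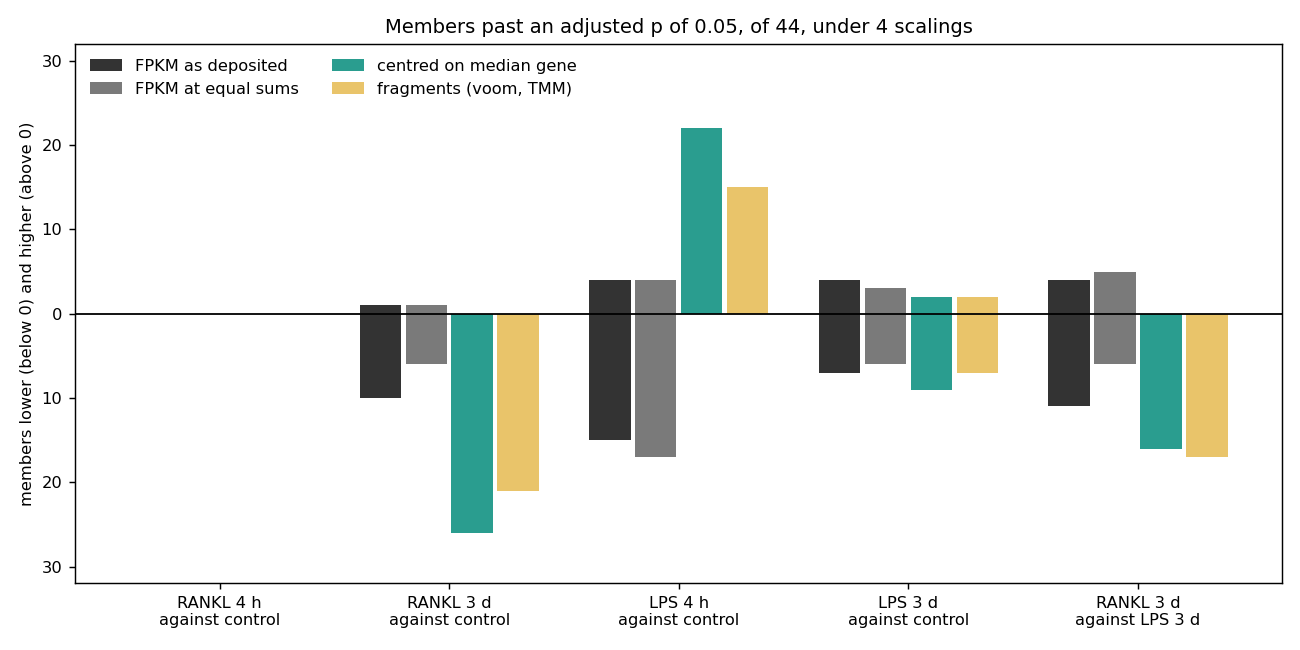
Number of the 44 members higher (bars up) and lower (bars down) at a limma adjusted p under 0.05 in 5 comparisons, under 4 scalings. RANKL 3 d against control points down under each scaling, with 10, 6, 26 and 21 members lower. Of all 11743 tested genes 1157, 890, 2143 and 1709 were lower there. LPS 4 h against control changes from 15 lower and 4 higher as deposited to 22 higher and 0 lower when centred. Of all tested genes 5887 were lower and 1141 higher there as deposited, and 2021 and 2382 when centred.

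Several members share sequence with neighbours, which could move their values. By GENCODE M21 on GRCm38, 11 of the 44 have an exon that overlaps an exon of another gene, 3 of them on the same strand, and whether counting used strand is not given in the sources used here. *Psme1* overlaps *Emc9* and *Psmb7* overlaps *Nek6* on the opposite strand, and *Psmb5* overlaps the microRNA gene *Mir686* on its own strand. Copies named after a member exist for 4 members, *Psmb5*, *Psmb6*, *Psmb7* and *Psme2*. The members lie on 16 chromosomes.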

How the data were processed

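Bulk RNA-seq of 15 BMDM samples was used. The authors deposited 1 FPKM value per gene and sample; their processing notes name StringTie and the builds GRCm38.p4 and mm10, and the aligner is not given in the sources used here. Of 20089 complete gene entries, the 11743 with a mean of at least 0.1 FPKM were tested. The last entry, *Ttk*, is incomplete, and genes that would follow it alphabetically were not analysed here.

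Groups and replicate numbers came from the sample titles. limma (version 3.58.1, R 4.3.3; lmFit, eBayes with trend) was fitted to log2(FPKM + 0.1) over all tested genes and all 5 groups, so fold changes understate those of low genes. A member was called changed at a Benjamini-Hochberg adjusted p under 0.05 over all tested genes. Ratios used a two-sided exact permutation test (scipy 1.17.1). Each FPKM value is a whole number of steps whose size depends on gene and sample, and fragments were recovered for 14485 of 14485 genes above 0 in at least 3 samples, with 100% of values within 0.01 of a whole fragment. limma voom on these fragments, with TMM factors computed by a script after the published method, was an alternative. The others were pseudocounts of 1 and 0.01, mean FPKM filters of 1 or none, equal sums, centring on the median gene, the replicate block, only the groups compared, no trend, the fold limits 1.5 and 0.66 and leaving out each replicate. Both the fit and the recovery were tested on simulated data.

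Same-numbered samples deviated together (correlation over 9486 genes above 0.1 in every pair) in RANKL 4 h (0.71 to 0.84), RANKL 3 d (0.14 to 0.32) and LPS 4 h (0.44 to 0.62) with control, but not in LPS 3 d (-0.03 to 0.18); the titles give the number only. No replicates agreed within sampling noise. Named with values were the catalytic subunits, activators, assembly chaperones, *Psmf1*, the 3 largest rises and falls past the test, and the highest and lowest member of each role; others are named where a count is small, chosen after their values were seen. The members, lists and roles were chosen with earlier results of these data known. Promoter windows are RefSeq's on GRCm38.p6 and gene overlaps from GENCODE M21.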

Additional observations from a re-analysis of the deposited data

Results flagged for a closer look

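Direct comparisons of stimulated groups, which test the difference itself, gave 26 member differences that passed both the adjusted p of 0.05 and the fold limits of 1.5 and 0.66 on the log2(FPKM + 0.1) scale. Of all tested genes, the fold limits with an unadjusted p under 0.05 took 51.8% between RANKL and LPS at 4 h and 38.9% at 3 d. They took 28.3% between RANKL 3 d and RANKL 4 h and 59.3% between LPS 3 d and LPS 4 h. Among members there were 8 between RANKL and LPS at 4 h. Higher in RANKL 4 h were *Psma8* (1.29), *Psmg3* (0.79), *Psmg2* (0.78), *Psmg1* (0.63), *Psmd9* (0.62) and *Psmd5* (0.59), and lower were *Psme2* (-0.91) and *Psmd10* (-0.69). Between RANKL and LPS at 3 d there were 4, with *Psmg4* (0.72) higher in RANKL 3 d and *Psmf1* (-0.77), *Psmd4* (-0.67) and *Psmc5* (-0.61) lower. Without LPS 3 d replicate 3 these were 0.68, -1.03, -0.68 and -0.62, all with an adjusted p under 0.05. Between RANKL 3 d and RANKL 4 h there were 2, *Psme1* (-0.94) and *Psmb5* (-0.62), both lower at 3 d.

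Between LPS 3 d and LPS 4 h there were 12. Higher at 3 d were *Psmg3* (1.06), *Psmf1* (0.999), *Psma8* (0.96), *Psmd5* (0.85), *Psmg2* (0.76), *Psmd9* (0.66), *Psme3* (0.65) and *Psmc1* (0.61). Lower at 3 d were *Psme1* (-1.15), *Psme2* (-1.12), *Psma5* (-0.75) and *Psmb6* (-0.70). Without LPS 3 d replicate 3 these 12 kept an adjusted p under 0.05 and their direction. Positive values between the 4 h groups and between the LPS times stand beside an all-gene median of 0.53 and 0.52 in those comparisons. The groups have 3 samples each, so single outlying samples were not tested.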

How the results depend on the processing

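The direction of the family depends on the scaling at LPS 4 h and not at RANKL 3 d. Numbers of changed members that moved by over 1.5 times were as follows. With the fold limits of 1.5 and 0.66 and an unadjusted p in place of the adjusted p, they were 3 (RANKL 3 d), 6 (LPS 4 h) and 4 (LPS 3 d) against control, 8 and 4 between the stimuli at 4 h and 3 d, and 2 and 12 between the times of RANKL and of LPS. For RANKL 3 d against control, equal sums gave 7, centring 26 and limma voom 21 in place of 11. Of all tested genes these called 3892, 3539 and 3500 in place of 3597. For RANKL 3 d against RANKL 4 h, centring gave 22 and voom 16 in place of 10, and 3462 and 3378 of all tested genes in place of 3465. Fitting only the groups compared gave 4 for LPS 3 d against control and 8 for RANKL 3 d against LPS 3 d. For this fit and for those leaving out 1 replicate, counts over all tested genes are not given, so member counts there have no background.

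Leaving out 1 replicate gave 6 to 9 changed members for RANKL 3 d against control, 12 to 19 for LPS 4 h against control, 4 to 12 for LPS 3 d against control, 9 to 16 for RANKL 3 d against LPS 3 d and 5 to 11 for RANKL 3 d against RANKL 4 h. Between FPKM as deposited and centred, 25 members in LPS 4 h against control, 17 in RANKL 4 h against LPS 4 h and 16 in LPS 3 d against LPS 4 h changed sign with a call on at least 1 scale. On both scales the call was past the test for *Psmc6* in the first and for *Psmc2* and *Psmc6* in the last. No member did so in the other comparisons. For genes named by rule in LPS 4 h against control, centred values were *Psmb5* 0.20, *Psmb7* 0.48, *Psme3* 0.20, *Psme4* 0.32, *Psmd5* 0.019 and *Psmd9* 0.086, and voom values were *Psmb5* 0.13, *Psme3* 0.13 and *Psmd9* 0.011. These alternatives set the median gene near 0 (0.04 centred, -0.07 voom) where it was -0.52. With the replicate block the changed members were 0, 13, 12 and 20 for RANKL 4 h, RANKL 3 d, LPS 3 d and LPS 4 h against control and 21, 16, 11 and 21 in the other comparisons. Of all 11743 tested genes the block called 25, 4145, 4653 and 7388 against control, in place of 14, 3597, 4199 and 7028. In the others it called 7540, 5728, 3984 and 8138, in place of 7191, 5347, 3465 and 7841. The block changed the call of *Psmb5*, *Psme4* and *Psmg4* as given with those genes, and also added *Psmb3* to the falls in RANKL 3 d and *Psmb2* to those in LPS 3 d. Between stimulated groups it added *Psmb3*, *Psmd1* and *Psmd2* to those higher in RANKL 4 h than in LPS 4 h. It added *Psmb4* to those lower in RANKL 3 d than in RANKL 4 h, *Psmg3* to those lower in RANKL 3 d than in LPS 3 d, and *Psmg4* to those lower in LPS 3 d than in LPS 4 h. It changed no other call of a member. No ratio of inducible to constitutive subunit moved by more than the spread between replicates. Leaving out 1 of 3 samples cannot move a mean that far, so this does not show the ratios to be stable. Doing so turned the sign of some log2 differences from control. These were *Psmb8* over *Psmb5* in RANKL 4 h (-0.34 to 0.09) and RANKL 3 d (-0.34 to 0.02). *Psmb9* over *Psmb6* turned in RANKL 3 d (-0.36 to 0.05). *Psmb10* over *Psmb7* turned in RANKL 4 h (-0.26 to 0.17) and LPS 3 d (-0.35 to 0.06). The others kept their sign. *Psma8* rests on the fewest fragments.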
